A study of Mus musculus with 6 samples.

Results

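Transcripts of the machinery of mitosis were followed in J774A.1 cells, a macrophage-like line from the BALB/c mouse, grown in RPMI-1640 with fetal calf serum. Of 56 listed genes of mitosis and the spindle, 54 had an array feature paired with their symbol alone, out of 22180 genes measured in all. The cyclin B gene Ccnb1 had no feature of its own here, and the only feature of the condensin gene Ncapg is shared with Lcorl, so both are not analysed. Membership rests on function, not on a cut of a measured value, but the list was chosen with earlier results of these data known. The treated group was 3 arrays of cells given neuropeptide FF (NPFF), an amidated neuropeptide with G-protein-coupled receptors, at 1 nM in phosphate-buffered saline for 18 h. The control group was 3 arrays of cells of the same line given the saline alone for 18 h. The sample titles call the control cells untreated, whereas the treatment labels name the vehicle. Replicates are called biological, but nothing says whether their cultures were separate; a p-value here reflects only how far these arrays vary, which may be technical. All cells were of 1 line, a proliferating tumour line, which limits it as a model of resting macrophages.

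Cells enter mitosis when cyclin-dependent kinase 1, bound to A- and B-type cyclins, becomes active. Chromosomes then condense, the spindle attaches to them at kinetochores, and a checkpoint holds the anaphase-promoting complex in check until every kinetochore is attached. Once released, that complex marks securin and the cyclins for destruction, separase opens cohesin, and the cell divides. Most of these genes are transcribed in a wave late in the cell cycle, under the MuvB complex with the factors B-Myb (Mybl2) and FoxM1. In cultured macrophage lines the wave is taken as a readout of proliferation. An array of a whole culture cannot tell a larger share of cells in mitosis from more transcript per cell.

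The promoters of these genes are known for a short element, the cell cycle genes homology region (CHR), which often lies near CCAAT boxes. The stretches below, from RefSeq on build GRCm38.p6, give the 100 bases before the annotated start of transcription for 4 genes that recur in the results. Cdk1, Cdc20 and Top2a had higher means in NPFF arrays than in the 3 controls, while Kif11 did not. Without control 1, an array described below, Kif11 was higher too, by 0.09 on the log2 scale against 0.07 for Cdk1. Capitals mark TTTGAA or TTCGAA, the CHR letters searched, and CCAAT, each on either strand.
Cdk1 (chr10:69352913-69353012, minus strand): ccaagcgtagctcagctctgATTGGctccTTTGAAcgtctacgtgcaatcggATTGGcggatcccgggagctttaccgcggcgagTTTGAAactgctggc
Cdc20 (chr4:118437344-118437443, minus strand): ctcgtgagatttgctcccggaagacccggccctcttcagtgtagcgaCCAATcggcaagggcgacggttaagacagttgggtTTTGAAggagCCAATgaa
Top2a (chr11:99024190-99024289, minus strand): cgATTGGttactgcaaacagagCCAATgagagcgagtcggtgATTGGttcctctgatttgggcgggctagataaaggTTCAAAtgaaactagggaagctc
Kif11 (chr19:37376282-37376381, plus strand): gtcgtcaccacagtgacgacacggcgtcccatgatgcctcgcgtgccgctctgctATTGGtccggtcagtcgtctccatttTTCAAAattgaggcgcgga
Each of the 4 stretches holds a CHR match whose first base lies between positions -23 and -15 from the start, with at least 1 CCAAT match upstream of it. Many of the other genes did not share that layout. The same 100 bases of Nuf2, Spc25, Ncapd2, Plk1 and Aurka, among others, held no CHR match. In Plk1 and Aurka the letters lay past the start, at positions 31 and 33, and the shares below count such matches too.

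Of the 54 genes, 45 had at least 1 promoter window in the RefSeq table, a stretch mostly before the start and reaching shortly past it. These genes had 51 windows, of which 38, or 74.5%, held the CHR letters, against 19.2% of all 32851 windows of the same length. CCAAT occurred in 35 of the 51, or 68.6%, against 37.4% of all windows, and both in 31, or 60.8%, against 7.52%. Counted by gene, 34 of the 45 held the CHR letters in at least 1 window. Genes with the CHR letters had a median NPFF minus control difference of 0.13 on the log2 scale, with 25 of 34 higher. Those without them had a median of 0.10, with 7 of 11 higher. Without control 1, an array described next, the medians were 0.08 and 0.10. The groups were not tested against each other, and a match of letters is a description, not a binding site.

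Values are log2 intensities, and a difference is the NPFF mean minus the control mean unless stated. Control 1 stood apart from the other arrays. Its correlation across all genes with each other array lay between 0.965 and 0.979, whereas all other pairs lay between 0.992 and 0.998. As deposited, it also had the highest median intensity, 6.38 against 6.24 to 6.29. After quantile normalization it held the lowest value of 48.9% of all genes and the highest of 24.1%. Its SD over genes from the mean of the other arrays was 0.37. Control 2 came next with 0.21, against 0.11 to 0.13 for control 3 and the NPFF arrays. Control 2 held the highest value of 33.1% of all genes, so it is not a neutral reference either. Macrophage markers such as Adgre1 and Csf1r were all above the median signal of all genes, and their mean level per array ran from 10.46 to 10.75 in controls and from 10.65 to 10.74 in NPFF. Marker lists of fibroblasts, epithelium, endothelium, lymphocytes, and granulocytes or mast cells had median signal percentiles of 37.4, 38.6, 40.7, 22.6 and 19.5, and list means between 5.53 and 6.30 in every array. All markers measured of endothelium, lymphocytes, and granulocytes or mast cells lay below the median signal of all genes. Of the fibroblast and epithelial markers only 3 of 6 and 3 of 4 did. The highest of these were Col3a1 at percentile 55.9 and Krt8 at 62.7.

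The mitosis and spindle genes were slightly higher in NPFF as a set, though no single gene passed the test. Their mean level was 9.49, 9.59 and 9.59 in controls 1, 2 and 3 and 9.69, 9.70 and 9.65 in NPFF 1, 2 and 3. Every NPFF array thus lay above every control, by 0.06 at the least. The group means were 9.56 ± 0.06 (SD, n = 3) and 9.68 ± 0.03 (SD, n = 3). Of the 54 genes, 39 were higher in NPFF, where 51.7% of all genes were, and the median difference was 0.12 against 0.00 over all genes. Over the 6335 genes at least as bright as the dimmest of the 54, that median was 0.04. Single differences ran from -0.08 to 0.41, that is from 0.944-fold to 1.33-fold. By limma with Benjamini-Hochberg adjustment over all genes, 0 of 54 passed, as did 0% of all genes, and each of the 54 had an adjusted p = 1.00. At an unadjusted p under 0.05 there were 5 higher in NPFF, where 0.834% of all genes were, and 1.86% of the 6335 genes at least as bright as the dimmest of the 54. They were Nuf2, Mybl2, Spc25, Ncapd2 and Cdc20. At that p 0 were lower, where 1.67% of all genes were. The count of 5 was 8 without control 1, where 3.59% of all genes were, 9 without control 3, where 1.74% were, 3 without NPFF 1, where 0.338% were, and 1 without NPFF 2, where 0.311% were.

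**Figure D1:**
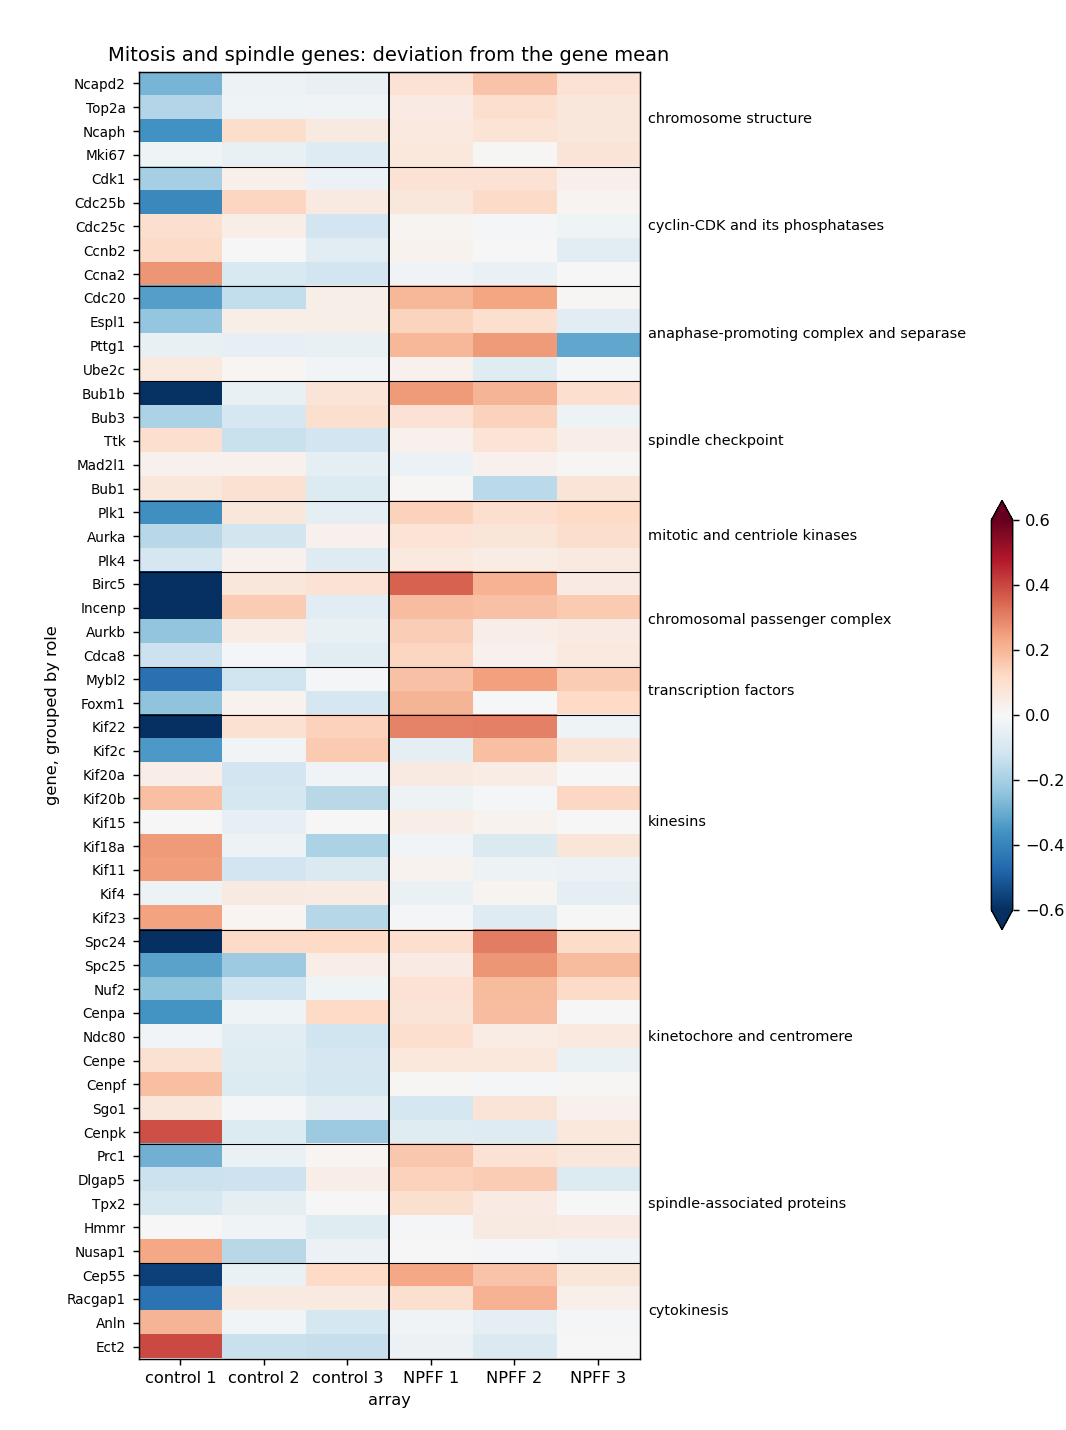
Heat map of the 54 genes (rows, grouped by role and ordered by NPFF minus control) in the 6 arrays (columns); colour is the log2 deviation from the gene's mean over the 6 arrays, with values beyond 0.6 drawn at the end of the scale. Control 1 holds the darkest cells in both directions, and the 3 NPFF columns are mostly pale red.

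In 15 genes all NPFF arrays lay above all controls, where 3.67% of all genes did; in 0 genes did they all lie below, against 4.92%. With the arrays centred on their medians in place of quantile normalization, these counts were 5 and 1, where 1.65% and 4.63% of all genes did so. The 54 genes are bright, between percentiles 71.4 and 99.0 of mean signal. Among the 6335 genes at least as bright as the dimmest of them, 7.26% lay wholly above, 7.34% wholly below and 60.2% had the higher mean in NPFF. Leaving out control 1 or NPFF 3, with fewer arrays to part, gave 26 genes wholly above, where 8.97% and 7.87% of all genes were. The NPFF mean was above every control in 29 genes, where 11.9% of all genes and 18.3% of those bright ones were. The spread of a gene was larger among controls, with a median SD of 0.15, than among NPFF arrays, with 0.05. The same medians over all genes were 0.14 and 0.07.

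**Figure D2:**
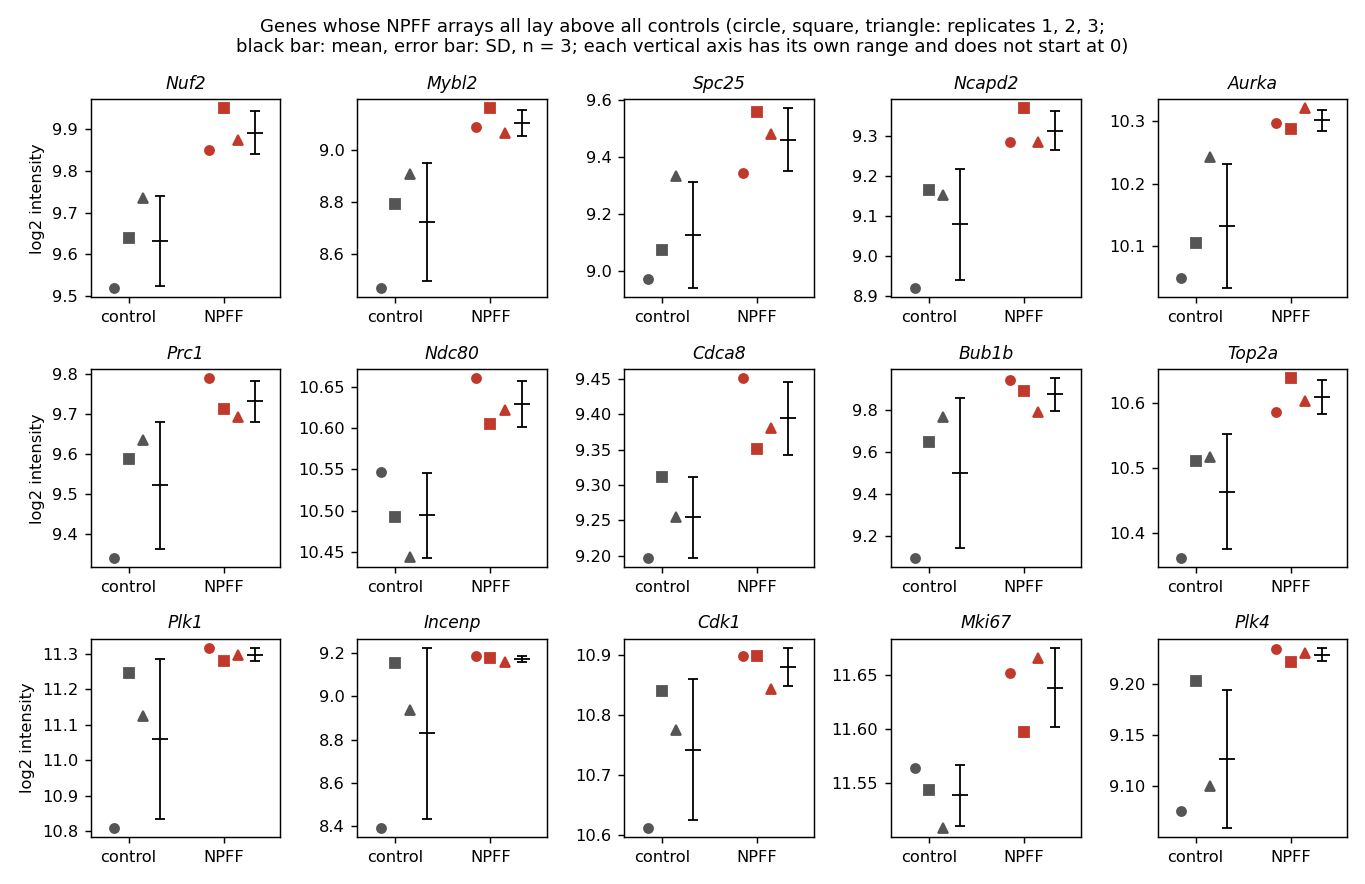
Log2 intensity of the 15 genes whose NPFF arrays (red) all lay above all controls (grey), 1 panel per gene in order of p; symbols mark replicates 1 to 3, and bars give the mean with its SD (n = 3). Control 1, the circle, is the lowest grey point in 13 of the 15 panels, the exceptions being Ndc80 and Mki67.

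Set against each control in turn, the share of the 54 genes that were higher lay above that of all genes against controls 2 and 3, and near it against control 1. Against control 1, 35 of 54 genes were higher in the NPFF mean, where 62.6% of all genes were, with a median of 0.18 against 0.07 over all genes and 0.15 over the bright ones. Against control 2 there were 44, where 35.8% of all genes were, with a median of 0.09 against -0.04 and -0.03. Against control 3 there were 49, where 48.0% of all genes were, with a median of 0.10 against -0.0044 and -0.01. Among the bright genes the shares above controls 1, 2 and 3 were 67.1%, 40.7% and 44.7%. The comparison with control 1 had the largest median and the fewest genes above 0, and its differences spread from -0.44 to 1.00. Those against control 3 lay between -0.09 and 0.24. Between controls 2 and 3, 23 of 54 genes were higher in control 3, with a median difference of -0.01. Taking 1 array from each group, the set's mean was higher in the NPFF array in all 9 pairs, with 33 to 51 genes higher. NPFF 3 against control 1 gave the 33, where 61.4% of all genes and 66.4% of the bright ones were higher, so that count is no higher than the background. NPFF 2 against control 3 gave the 51, where 51.8% and 51.2% were. These comparisons share arrays and are not independent of each other.

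**Figure D3:**
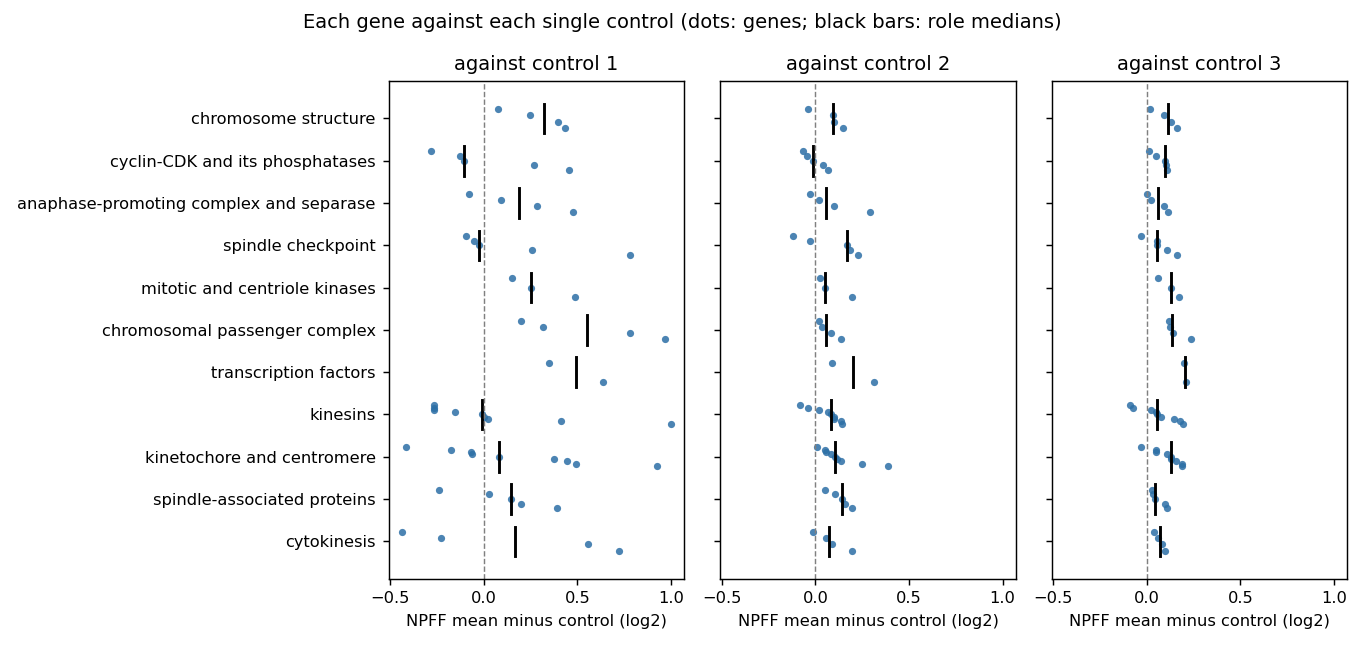
NPFF mean minus control 1, 2 or 3 (3 panels, log2) for each gene (dots), grouped by role on the vertical axis, with the role's median as a black bar. Dots spread from -0.44 to 1.00 against control 1, and lie mostly just above 0 against controls 2 and 3.

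Both transcription factors of the set were higher in NPFF. Mybl2 encodes B-Myb, which joins MuvB to switch on late cell cycle genes, and stood at 8.47, 8.79 and 8.91 in controls and 9.09, 9.16 and 9.07 in NPFF (feature 17379206). All NPFF arrays were above all controls, with control 1 the lowest. The difference was 0.38 (SE 0.12), unadjusted p = 0.017 by limma, and 0.25 without control 1. A dimmer second feature of Mybl2 differed by 0.10, and its values overlapped between groups. Foxm1, the other factor of the wave, read 8.70, 8.96 and 8.84 in controls and 9.15, 8.94 and 9.06 in NPFF, a difference of 0.22 (SE 0.09). Control 2 lay above NPFF 2, so its groups overlapped.

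Genes of the kinase that starts mitosis were mixed. Cdk1, the kinase itself, read 10.61, 10.84 and 10.77 in controls and 10.90, 10.90 and 10.84 in NPFF, with NPFF 3 only just above control 2. The difference was 0.14 (SE 0.08), and 0.07 without control 1. Its cyclin partners did not share that order. Ccna2, cyclin A2, read 11.62, 11.27 and 11.25 in controls and 11.34, 11.32 and 11.36 in NPFF. Control 1 was the highest array there, and the difference of -0.04 (SE 0.11) became 0.08 without it. Ccnb2, cyclin B2, had -0.03 (SE 0.07), and 0.02 without control 1. Cdc25b, a phosphatase that activates the kinase, had 0.13 (SE 0.14), and -0.03 without control 1. Of the 5 measured genes of this group, 2 were higher in NPFF against all controls together. Against control 1 there were 2, against control 2 also 2, and against control 3 all 5.

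The kinases of centrosome and spindle were all higher, with no overlap in any of the 3. Of all genes 3.67% lay wholly above the controls, and of the bright ones 7.26%. Aurka, the Aurora kinase of spindle poles, read 10.05, 10.11 and 10.24 in controls and 10.30, 10.29 and 10.32 in NPFF, a difference of 0.17 (SE 0.07). Plk1, the polo-like kinase that acts from mitotic entry to exit, read 10.81, 11.25 and 11.12 in controls and 11.32, 11.28 and 11.30 in NPFF. The NPFF arrays lay close together, above controls that were spread wide. Its difference of 0.24 (SE 0.12) was 0.11 without control 1. Plk4, which licenses centriole duplication, differed by 0.10 (SE 0.06).

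The chromosomal passenger complex, which corrects faulty attachments and later guides cytokinesis, had 4 of 4 genes higher, with a median of 0.25 that was 0.12 without control 1. Birc5, or survivin, had the largest difference of all 54 genes, 0.41 (SE 0.24). It read 7.47, 8.31 and 8.32 in controls and 8.59, 8.45 and 8.28 in NPFF. The low value of control 1 stands out there, NPFF 3 lay below controls 2 and 3, and without control 1 the difference was 0.13. Incenp, the scaffold of the complex, read 8.39, 9.15 and 8.94 in controls and 9.19, 9.17 and 9.16 in NPFF. Its groups did not overlap, but control 2 came close to NPFF 3, and 0.34 (SE 0.19) became 0.13 without control 1. Cdca8, or borealin, read 9.20, 9.31 and 9.25 in controls and 9.45, 9.35 and 9.38 in NPFF, a difference of 0.14 (SE 0.07) that was 0.11 without control 1. Aurkb, the kinase of the complex, had 0.16 (SE 0.09), and 0.08 without control 1, with overlap.

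The spindle checkpoint was divided, with 3 of 5 genes higher and a median of 0.10. Bub1b, which encodes the checkpoint inhibitor BubR1, read 9.10, 9.65 and 9.77 in controls and 9.94, 9.89 and 9.79 in NPFF. There was no overlap, and the difference of 0.37 (SE 0.17) was 0.17 without control 1. Ttk, the kinase that recruits checkpoint proteins, read 8.82, 8.59 and 8.61 in controls and 8.75, 8.80 and 8.76 in NPFF. All NPFF arrays lay above controls 2 and 3 and below control 1, so that 0.10 (SE 0.08) became 0.17 without control 1. Bub3 had 0.13 (SE 0.10), and 0.07 without control 1. Its partner kinase Bub1 differed by -0.05 (SE 0.09), but by 0.02 without NPFF 2, and Mad2l1, the Mad2 inhibitor, by less than 0.01 (SE 0.06).

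Kinetochore genes held the smallest p-value of the set. Nuf2 and Ndc80 form the end of the Ndc80 complex that binds microtubules, and Spc24 and Spc25 the end that anchors it. Nuf2 read 9.52, 9.64 and 9.74 in controls and 9.85, 9.95 and 9.88 in NPFF (feature 17229433). Its groups did not overlap, and the difference was 0.26 (SE 0.08), unadjusted p = 0.014 by limma, and 0.20 without control 1. Spc25 read 8.97, 9.07 and 9.33 in controls and 9.34, 9.56 and 9.48 in NPFF, a difference of 0.33 (SE 0.11), unadjusted p = 0.023 by limma. Control 3 nearly reached NPFF 1, and the difference was 0.26 without control 1. Ndc80 read 10.55, 10.49 and 10.44 in controls and 10.66, 10.61 and 10.62 in NPFF. Here control 1 was the highest control, there was still no overlap, and 0.14 (SE 0.06) was 0.16 without it. Spc24 had 0.34 (SE 0.24), and 0.06 without control 1, its lowest array by far.

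Of the 9 kinetochore and centromere genes, 7 were higher against all controls, and all 9 against the mean of controls 2 and 3, with a median of 0.12. Cenpa, the histone variant of centromeres, had 0.18 (SE 0.13), and 0.04 without control 1. Cenpf, a large kinetochore protein of late cell cycle, read 9.11, 8.85 and 8.82 in controls and 8.94, 8.93 and 8.94 in NPFF. Its NPFF arrays lay above controls 2 and 3 and below control 1, and 0.01 (SE 0.09) became 0.10 without control 1. Cenpk, of the inner kinetochore, did the same, with -0.06 (SE 0.16) against all controls and 0.12 without control 1.

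Kinesins, the motors that move chromosomes and slide microtubules, had a median of 0.04, with 5 of 9 higher and 0 without overlap. Wholly above the controls lay 3.67% of all genes and 7.26% of the bright ones, and wholly below 4.92% and 7.34%. Kif22, a chromosome arm motor, read 7.63, 8.53 and 8.57 in controls and 8.74, 8.74 and 8.41 in NPFF. Its difference of 0.38 (SE 0.26) rests on control 1 and was 0.08 without it. Kif11, the motor that separates spindle poles, read 10.10, 9.74 and 9.77 in controls and 9.88, 9.82 and 9.82 in NPFF. The difference was -0.03 (SE 0.11), and 0.09 without control 1. Kif2c, a microtubule depolymerase, had 0.14 (SE 0.14), and less than 0.01 in size without control 1. Kif23, a motor of the central spindle, had -0.06 (SE 0.11), and 0.05 without control 1. Kif4, of chromosome condensation and the midzone, read 7.91, 7.99 and 7.99 in controls and 7.90, 7.95 and 7.89 in NPFF, a difference of -0.05 (SE 0.06), and -0.08 without control 1. Once control 1 was left out, it was the 1 gene of the 54 whose NPFF arrays all lay below all controls, where 18.3% of all genes did.

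Proteins that bundle and organise spindle microtubules had 4 of 5 genes higher, with a median of 0.10. Prc1, the bundler of the midzone, read 9.34, 9.59 and 9.64 in controls and 9.79, 9.71 and 9.69 in NPFF. There was no overlap, and 0.21 (SE 0.09) was 0.12 without control 1. Tpx2, which activates Aurora A on the spindle, had 0.10 (SE 0.06). Dlgap5 had 0.14 (SE 0.09), and 0.22 without NPFF 3, and Hmmr 0.06 (SE 0.06), and 0.04 without control 3.

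Genes of the exit from mitosis were led by Cdc20, the activator that the checkpoint restrains. It read 9.13, 9.31 and 9.49 in controls and 9.66, 9.69 and 9.46 in NPFF (feature 17429177). NPFF 3 lay just below control 3, and the difference was 0.29 (SE 0.11), unadjusted p = 0.039 by limma, and 0.20 without control 1. Ube2c, the conjugating enzyme of the anaphase-promoting complex, had -0.04 (SE 0.06), which was -0.01 without control 1, -0.06 without NPFF 1 and -0.0079 without NPFF 2. Pttg1, or securin, read 8.05, 8.04 and 8.05 in controls and 8.29, 8.35 and 7.78 in NPFF. Its difference of 0.10 (SE 0.15) was 0.02 without NPFF 1, -0.01 without NPFF 2 and 0.28 without NPFF 3. Espl1, or separase, had 0.11 (SE 0.10), and 0.02 without control 1.

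Cytokinesis genes differed in where control 1 lay. Cep55, an abscission factor, read 8.16, 8.68 and 8.84 in controls and 8.95, 8.89 and 8.79 in NPFF, and Racgap1, of the central spindle, differed by 0.23 (SE 0.15). Their differences without control 1 were 0.12 and 0.06, against 0.32 (SE 0.17) for Cep55 with it. Ect2, the exchange factor that activates RhoA at the division plane, read 11.21, 10.68 and 10.68 in controls and 10.78, 10.73 and 10.81 in NPFF. Its difference of -0.08 (SE 0.15) was the lowest of the 54, yet all 3 NPFF arrays were above controls 2 and 3, by 0.09 on average. Anln, or anillin, had -0.05 (SE 0.09), and 0.03 without control 1.

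Genes of chromosome structure had 4 of 4 higher, 3 of them without overlap, where 3.67% of all genes and 7.26% of the bright ones lay wholly above. Ncapd2, a condensin subunit, read 8.92, 9.16 and 9.15 in controls and 9.28, 9.37 and 9.28 in NPFF (feature 17471023). The difference was 0.23 (SE 0.09), unadjusted p = 0.033 by limma, and 0.15 without control 1. Top2a, the topoisomerase that untangles sister chromatids, read 10.36, 10.51 and 10.52 in controls and 10.59, 10.64 and 10.60 in NPFF, a difference of 0.15 (SE 0.07). It was 0.10 without control 1. Mki67, the coat protein of mitotic chromosomes used to mark dividing cells, read 11.56, 11.54 and 11.51 in controls and 11.65, 11.60 and 11.67 in NPFF. Control 1 was its highest control, the groups did not overlap, and 0.10 (SE 0.06) was 0.11 without control 1. Ncaph, of condensin as well, had 0.14 (SE 0.13), and -0.01 without control 1.

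The position of control 1 divided the set. It was the lowest of the 6 arrays in 29 of the 54 genes, against 48.9% of all genes. It was the highest in 16, against 24.1%, so both counts are near the share of all genes. It lay below both other controls in 30 genes, of which 29 were higher in NPFF, with a median of 0.19. It lay above both in 20, of which 8 were higher, with a median of -0.02. The first group holds Birc5, Kif22, Spc24, Incenp and Bub1b, and the second Ect2, Cenpk, Kif11, Ccna2, Cenpf and Nusap1, a spindle assembly factor. Since control 1 enters the control mean, that split follows in part from the arithmetic. Against the mean of controls 2 and 3 the medians were 0.10 and 0.09, with 26 of 30 and 19 of 20 genes higher. Over all 54 genes, 48 were higher there, with a median of 0.09, where 39.1% of all genes were and the median of all genes was -0.02. The 6 below that mean were Cdc25b, Bub1, Kif2c, Kif4, Ube2c and Ncaph. In 41 genes the NPFF mean was above controls 2 and 3 each, where 23.7% of all genes and 24.6% of the bright ones were, and 12 of these were not above control 1. In 26 genes all NPFF arrays lay above controls 2 and 3, where 8.97% of all genes did. By the rule itself, these must include all 15 genes without overlap among the 6 arrays. With arrays weighted by their fit, 7 genes passed the adjusted threshold of limma, where 1.88% of all genes did so in the higher direction and 5.08% in either: Ttk, Plk1, Incenp, Foxm1, Mybl2, Ndc80 and Ncapd2. That fit rests almost wholly on control 3 in its group, with a weight of 22.6 against 0.0773 for control 1, and its weights had not settled when the estimation stopped. Why control 1 differed was not tested.

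**Figure D4:**
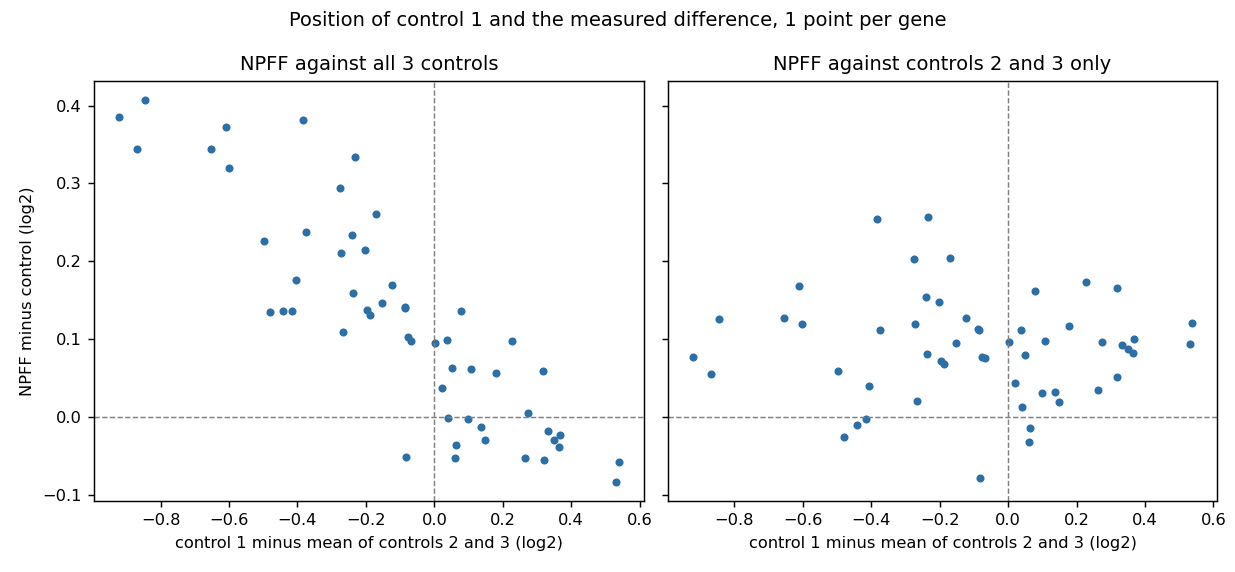
Each of the 54 genes (dots) by the position of control 1 relative to controls 2 and 3 (horizontal axis, log2) and by NPFF minus control (vertical axis, log2), with all 3 controls on the left and without control 1 on the right. On the left the axes share control 1, so the slope is partly built in; on the right 48 of 54 dots lie above 0 on both sides of the vertical line.

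Other genes of mitosis, from a list of 82 that shares no member with the 54, were measured for 76. Of these 57 were higher in NPFF, where 51.7% of all genes and 60.2% of the bright ones were, with a median of 0.10. Wholly above the controls lay 12, against 3.67% of all genes and 7.26% of the bright ones, and wholly below 1, against 4.92% and 7.34%. By limma over all genes 0 passed. At an unadjusted p under 0.05 there were 5 higher, against 0.834% and 1.86%, and 0 lower, and the 6 of smallest p follow. Pbk, a mitotic kinase, read 9.73, 9.93 and 9.88 in controls and 10.12, 10.06 and 10.04 in NPFF, a difference of 0.23 (SE 0.07) without overlap. Cenph had 0.31 (SE 0.11), Knl1, the kinetochore scaffold for Bub proteins, 0.16 (SE 0.06), Spag5 0.19 (SE 0.08), Nek2 0.23 (SE 0.09) and Mis18a 0.21 (SE 0.09). Cenph was 0.21 without control 1. Against the mean of controls 2 and 3, 58 of the 76 were higher, where 39.1% of all genes were, with a median of 0.04. Subunits of MuvB and its partners, which control the late wave, had 8 of 11 higher, against 51.7% and 60.2%, and a median of 0.05. Of the 11, 1 lay wholly above the controls, Tfdp1, against 3.67% and 7.26%. Wholly below lay 2, Rbl2 and Lin9, with -0.18 each, against 4.92% and 7.34%. Without control 1 the difference was -0.15 for Rbl2 and -0.09 for Lin9.

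DNA replication and S-phase genes, the earlier wave of the cycle, had 41 of 44 higher and a median of 0.17. Of all genes 51.7% were higher, and of the bright ones 60.2%. Wholly above the controls lay 16 of the 44, against 3.67% and 7.26%, and wholly below 0, against 4.92% and 7.34%. Their mean in control 1 was 0.32 below the mean of the 6 arrays, against 0.13 below for the mitosis and spindle genes. Without control 1 their median was 0.08, with 39 of 44 higher, where 39.1% of all genes were. Ribosomal protein genes were also low in control 1, by 0.26. Their median went from 0.08 to 0.00 without it, with 21 of 42 higher, against the same 39.1%. Mitochondrially encoded transcripts were 0.19 above their mean in control 1 and 0.14 below it in control 2, and between -0.03 and 0.00 in NPFF arrays and control 3. No test of the difference between these lists was made, and the part of these array-wide shifts in the values of the mitosis genes was not tested.

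**Figure D5:**
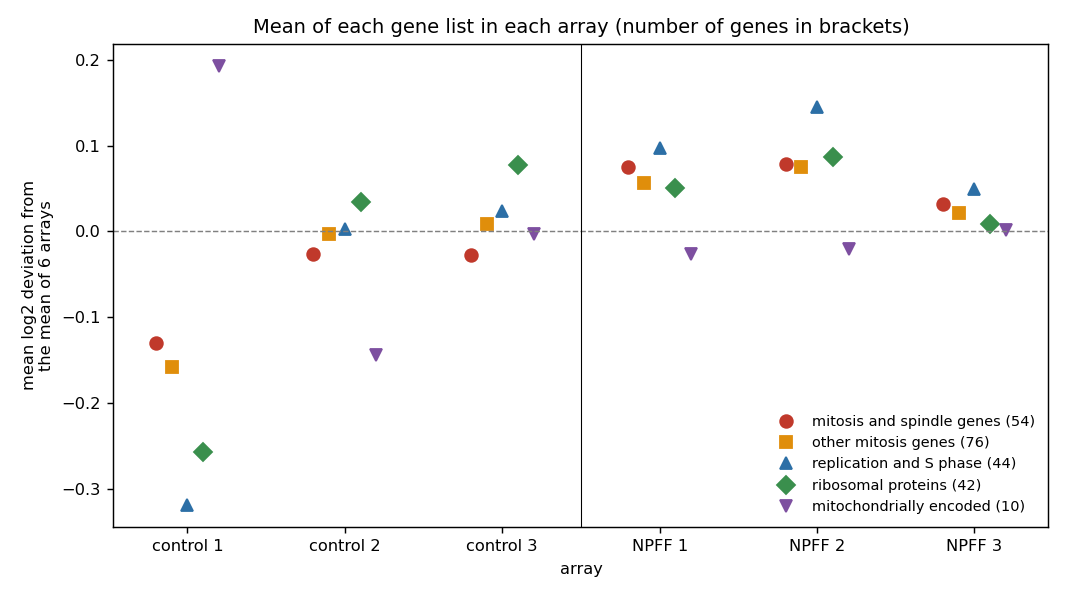
Mean log2 deviation of 5 gene lists (symbols, number of genes in brackets) from their mean over the 6 arrays, for each array on the horizontal axis. The mitosis and spindle genes lie at -0.03 in both control 2 and control 3 and between 0.03 and 0.08 in the NPFF arrays; control 1 is the lowest array for every list but the mitochondrial one.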

How the data were processed

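Per the labels' protocols, total RNA was extracted with TRIZOL and the targets were labelled for Affymetrix whole-transcript arrays. The authors deposited 1 log2 intensity per feature and array (the scale is inferred from values of 4.59 to 14.0); how they corrected background or normalized, and on which genome build, is not stated in the sources used here. A platform table paired 23521 of 33794 features with 1 symbol, 1814 with several and 8459 with none.

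As the sorted values of the deposited arrays departed from their mean by up to 0.17 log2, all features were quantile-normalized. The brightest feature stood for each of 22180 genes; among the members this choice arose for Mybl2 alone. Groups were compared with lmFit and eBayes of limma 3.58.1 in R 4.3.3 (4 residual and 2.49 prior degrees of freedom), two-sided, adjusted by Benjamini-Hochberg at 0.05. Arrays carry no counting depth; their number limits precision. Members and lists were chosen with earlier results of these data known, so no test over the list was made. Named genes were a fixed set, the 2 of smallest p in each role, those without overlap at an unadjusted p under 0.05, the 3 lowest, and 6 other mitosis genes of smallest p. Further members (Ndc80, Plk4, Ccna2, Ccnb2, Spc24, Cenpa, Ttk, Ube2c, Pttg1, Dlgap5, Ncaph, Hmmr, Mad2l1, Anln, Kif4, Nusap1) were named after their values were seen. The fit was checked on simulated data. Alternatives were other normalizations, feature and signal rules, arrays left out, array weights, an intensity trend and a replicate block.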

Additional observations from a re-analysis of the deposited data

How the results depend on the processing

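Under the normalization, feature, filter, trend, weight, block and left-out-array settings run, the median difference of the 54 genes stayed between 0.09 and 0.14, and the count of higher genes between 37 and 50. The counts of genes moved more, and the cause was not tested. In brackets is the share of all genes called alike. Genes wholly above the controls numbered 15 (3.67%), but 9 (2.57%) in the values as deposited, 5 (1.65%) with median-centred arrays and 34 (22.8%) without controls 1 and 2 together; genes wholly below numbered 0 (4.92%), but 1 with centred arrays (4.63%), with cyclic loess (5.01%) and without both controls (26.8%). Fewer arrays make groups easier to part, and leaving out 1 array gave 16 to 26 above (5.52% to 11.8%) and 0 to 3 below (7.16% to 18.3%). At an unadjusted limma p under 0.05 there were 5 higher (0.834%), but 1 (0.428%) as deposited, 0 (0.203%) when centred and 24 (11.1%) with array weights, and 1 to 9 (0.311% to 3.59%) with 1 array left out. Adjusted over all genes 0 passed, also with any 1 array left out, but 7 with array weights, under which 5.08% of all genes were called, 1.88% higher; those weights put 22.6 on control 3 and 0.0773 on control 1. Same-numbered arrays of the groups correlated in their deviations from the group mean at 0.23, 0.45 and -0.33. Arrays of different number correlated at -0.50 to 0.41. Deviations within a group of 3 depend on each other, so these values cannot settle whether the numbers pair the arrays. The fit with the replicate block gave 4 unadjusted calls (0.64%), 0 adjusted and otherwise the same counts.

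Signs turned as follows. As deposited: the median of cyclin-CDK and its phosphatases 0.013, Mad2l1 0.00534. Centred: the median of cyclin-CDK and its phosphatases 0.016, Mad2l1 0.00773. Cyclic loess: the median of kinesins -0.013, Cenpf -0.035. Without controls 1 and 2: the median of cyclin-CDK and its phosphatases 0.095, Bub1 0.055, Kif11 0.074, Bub3 -0.031, Kif2c -0.091, Ect2 0.097, Cenpk 0.19, Kif23 0.14, Ccna2 0.095, Ccnb2 0.051, Cenpa -0.033, Mad2l1 0.053, Anln 0.080, Nusap1 0.027. Array weights: the median of cyclin-CDK and its phosphatases 0.093, Bub1 0.055, Kif11 0.078, Bub3 -0.024, Kif2c -0.10, Ect2 0.095, Cenpk 0.18, Kif23 0.14, Ccna2 0.093, Ccnb2 0.054, Cenpa -0.029, Ube2c 0.00365, Mad2l1 0.047, Anln 0.078, Nusap1 0.030. With 1 array left out the ranges were -0.12 to 0.035 for Anln, -0.11 to 0.016 for Bub1, -0.11 to 0.082 for Ccna2, -0.070 to 0.019 for Ccnb2, -0.025 to 0.23 for Cdc25b, -0.047 to 0.096 for Cenpf, -0.18 to 0.12 for Cenpk, -0.17 to 0.094 for Ect2, -0.095 to 0.088 for Kif11, -0.15 to 0.051 for Kif23, -0.00292 to 0.25 for Kif2c, -0.028 to 0.015 for Mad2l1, -0.011 to 0.22 for Ncaph, -0.11 to 0.093 for Nusap1, -0.00857 to 0.28 for Pttg1, -0.070 to 0.032 for the median of cyclin-CDK and its phosphatases, -0.00820 to 0.078 for the median of kinesins. Among genes that kept their sign, the ranges also reached over 1.5 times from the reported value, in arrays not named beside it, for Bub3 0.07 to 0.21, Espl1 0.02 to 0.17, Cenpa 0.04 to 0.28 and Ttk 0.05 to 0.17. No other setting run turned the sign of a named gene or of a role's median. With 3 arrays a group, the median SE of a difference over the 54 genes was 0.09.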
